A study of Mus musculus with 16 samples.

Results

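The TRAV14 family is a set of closely related variable (V) segments of the mouse T cell receptor (TCR) alpha locus. Its receptors were chosen by the V label of their alpha chain contigs, which is itself read from the sequencing data. A member is a cell with an alpha chain label that starts with TRAV14-, TRAV14D- or TRAV14N-, provided that the cell had exactly 1 beta chain and 1 or 2 alpha chains. Of 74368 cells with a contig, 38108 met the condition on chains, and 4395 of those carried a TRAV14 alpha chain. They came from TCR libraries of CD4+ T cells sorted for high CD44, a marker of earlier contact with antigen, from the spleens of mice that carried Vk*Myc myeloma cells. CD44 and CD4 themselves were not measured in these contig tables, so the sort could not be checked against its markers. The V label chose the members, and how often that label occurs is therefore given as a description against other families.

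The 4 groups each had 1 library in experiment 1 and 1 in experiment 2, as named in the sample titles. The KO anti-4-1BB and KO IgG groups are labelled as knockouts of Eomes, a T-box transcription factor of cytotoxic and memory T cells, and the loss of Eomes was not checked here. The WT anti-4-1BB and WT IgG groups carried the Eomes-IRES-GFP reporter. The KO mice of experiment 1 were Eomesfl/fl-CD4Cre, in which Cre is driven by the CD4 promoter, and those of experiment 2 were Eomesfl/fl-ERT2CD4Cre with tamoxifen, which the WT mice of experiment 2 also received. A difference between experiments cannot be told apart from one between these knockouts or from tamoxifen. Likewise, a difference between KO and WT cannot be told apart from one due to the reporter or Cre alleles named here. Mice of every group received 50 µg of anti-NK1.1 at days -2 and 5, which depletes natural killer cells, and the myeloma cells intravenously at day 0. The agonist antibody against the costimulatory receptor 4-1BB, or control IgG, was given at 20 µg on days 10, 13 and 16, and spleens were taken at day 18. The labels do not say how many mice made up a library, so p-values measure the spread between libraries.

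An alpha chain is built when 1 V segment is joined to 1 joining (TRAJ) segment, with bases trimmed and added at the junction. The first and second complementarity-determining regions (CDR1 and CDR2) are encoded in the V segment, while CDR3 spans the junction and is the most variable loop against peptide and MHC. The distal part of the mouse locus holds duplicated blocks of V segments, so a family has plain copies and copies marked D and N. The locus can rearrange again after a first join, by which V segments farther out are joined to J segments farther in.

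Contigs were found for 7 of the 9 TRAV14 copies in the RefSeq annotation of GRCm38.p6. The labels TRAV14D-1 and TRAV14D-2 occurred on 0 contigs. The others lie on chromosome 14 in the order TRAV14D-3-DV8 (53078547 to 53079045), TRAV14N-1 (53166677 to 53167178), TRAV14N-2 (53259678 to 53260179), TRAV14N-3 (53370077 to 53370575), TRAV14-1 (53554057 to 53554558), TRAV14-2 (53640775 to 53641225) and TRAV14-3 (53763196 to 53763694). The TRAJ segments follow, with TRAJ58 starting at 54157280 and TRAJ2 at 54217836. TRAV14-3 is thus the copy nearest to the J segments and TRAV14D-3-DV8 the farthest of those seen.

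The germline CDR1 shows how the copies differ. The most frequent CDR1 of each copy's contigs is given 5′ to 3′, with capitals at bases that differ from TRAV14N-1, the copy with the most cells.
TRAV14D-3-DV8: AacagTGcttttGactac
TRAV14N-1: gacagcacttttaactac
TRAV14N-2: gacagcacttttGactac
TRAV14N-3: AacagTGcttttGactac
TRAV14-1: gacagcacttttaactac
TRAV14-2: gacagcacttttGactac
TRAV14-3: AacagTGcttttGactac

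The CDR2 sequences split the copies in another way, again with capitals at differences from TRAV14N-1.
TRAV14D-3-DV8: atacTttcagtgtccgataaa
TRAV14N-1: atacgttcagtgtccgataaa
TRAV14N-2: atacgtCcagtgtccAataaa
TRAV14N-3: atacgttcagtgtccgataaa
TRAV14-1: atacTttcagtgtccgataaa
TRAV14-2: atacgtCcagtgtccAataaa
TRAV14-3: atacgttcagtgtccgataaa

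TRAV14N-2 and TRAV14-2 shared both loops, and so did TRAV14N-3 and TRAV14-3. Over the 267 V bases before CDR3, the 21 pairs of copies differed at 5 to 20 positions, with the fewest between TRAV14N-3 and TRAV14-3 and the most between TRAV14N-2 and TRAV14-1. At least 98.2% of the contigs with a given label carried the CDR1 shown for it. How often a contig of one copy received the label of another was not tested.

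Receptors were counted as clonotypes, that is, cells of 1 library with the same beta chain and the same main alpha chain (the one with more unique molecular identifiers, UMIs), by V and J labels and CDR3 nucleotides. The family made up 3202 of 30489 clonotypes, or 10.5%. By mean share over the 8 libraries TRAV14 ranked as number 5, at 10.4%, after TRAV7 (19.1%), TRAV6 (16.9%), TRAV13 (12.6%) and TRAV4 (11.5%). TRAV14N-1 was the most used copy with 658 clonotypes and 1002 cells. TRAV14-2 followed with 617 clonotypes and 918 cells, and TRAV14N-3 with 608 clonotypes and 801 cells. TRAV14-1 had 421 clonotypes, TRAV14N-2 369 and TRAV14D-3-DV8 318, and TRAV14-3 was the least used with 211.

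Library sizes ranged from 2656 to 8871 kept cells and from 80551 to 445027 TCR UMIs. In every library the main alpha chain of TRAV14 cells rested on more UMIs than that of other cells, by 1 or 2 at the median. The TRAV14 medians were 9 UMIs in KO anti-4-1BB against 7 in KO IgG and 10 in WT anti-4-1BB against 8 in WT IgG in experiment 1. In experiment 2 they were 12 in KO anti-4-1BB against 9 in KO IgG, and 11 in WT anti-4-1BB against 8 in WT IgG. UMI depth therefore moved with treatment in each of the 4 pairs, and its part in the treatment comparisons below was not tested beyond a minimum of 3 UMIs per chain. Of 37225 distinct barcodes, 866 were seen in more than 1 library, and 0 of those shared a beta CDR3 between libraries.

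Summed over copies, the family took between 9.39 and 11.4% of the clonotypes of a library. Anti-4-1BB libraries held 10.1% (KO) and 10.9% (WT) TRAV14 clonotypes in experiment 1, against 10.6% (KO) and 9.81% (WT) with IgG. In experiment 2 they held 9.52% (KO) and 9.39% (WT), against 11.1% (KO) and 11.4% (WT) with IgG. The 2 lowest of the 8 values were the anti-4-1BB libraries of experiment 2, yet the treated and IgG ranges overlapped. Paired within experiment and genotype, the effect of anti-4-1BB against IgG was -0.773 ± 1.41 percentage points (SD, n = 4), which did not pass an exact permutation test (two-sided p = 0.375, adjusted p = 0.643 over 12 tests). The pairs of experiment 1 averaged 0.287 points and those of experiment 2 averaged -1.83. KO and WT differed by -0.0494 ± 0.701 points (SD, n = 4; exact permutation p = 0.875).

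Counted as cells, the share was 10.2% in KO anti-4-1BB, 11.1% in KO IgG, 11.6% in WT anti-4-1BB and 11.0% in WT IgG in experiment 1. It was 10.1% in KO anti-4-1BB, 12.0% in KO IgG, 12.9% in WT anti-4-1BB and 12.5% in WT IgG in experiment 2. The 95% binomial intervals (Clopper-Pearson, counting error only) of KO anti-4-1BB and WT anti-4-1BB in experiment 2 did not overlap, at 9.32 to 11.0% against 11.9 to 13.9%. These intervals take cells as independent draws, which cells of 1 clonotype are not, so they are too narrow. Each side is 1 library, so the gap does not measure the spread between libraries. By clonotypes the same libraries held 9.52% (KO) and 9.39% (WT). Over libraries the KO minus WT difference in cell share was -1.11 ± 1.24 points (SD, n = 4) and was negative in 3 of 4 pairs (exact permutation p = 0.25, adjusted p = 0.6). For treatment the difference was -0.453 ± 1.14 points (SD, n = 4; exact permutation p = 0.625). The smallest two-sided p that this design allows is 0.125, so neither comparison could pass 0.05.

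**Figure D1:**
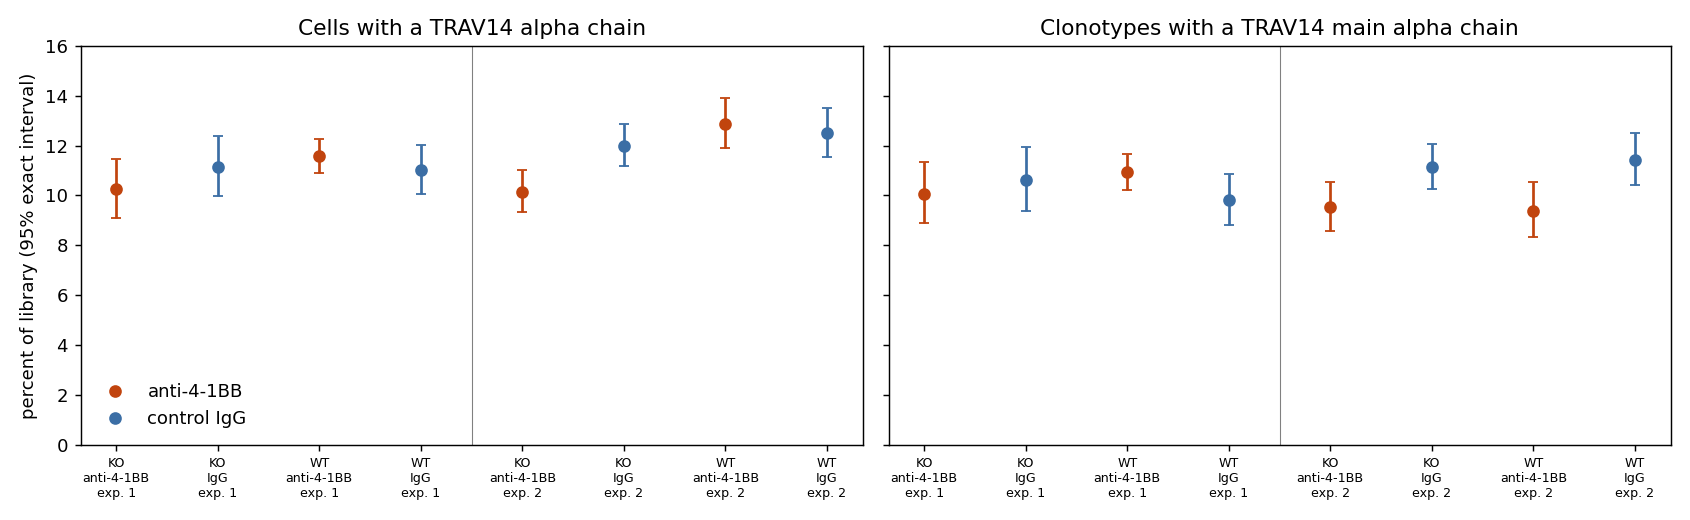
Percent of cells with a TRAV14 alpha chain (left) and percent of clonotypes with a TRAV14 main alpha chain (right) in each of the 8 libraries, with 95% Clopper-Pearson intervals. Both stay between 9.39 and 12.9%, and the lowest clonotype shares are the 2 anti-4-1BB libraries of experiment 2. The intervals on the left take cells as independent draws, which cells of 1 clonotype are not.

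The plot of cell and clonotype shares shows that WT anti-4-1BB of experiment 2 had the highest share of cells and the lowest share of clonotypes. The gap between those values is where the large clones described below lie.

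By clonotypes, 0 of the 7 copies passed for treatment, genotype, their interaction or experiment in edgeR's quasi-likelihood test, which was fitted over 153 V and J segments. The fits for treatment, genotype and their interaction had the 4 groups as terms and none for experiment. The fits within and between experiments took KO and WT libraries as replicates, so differences by genotype add to their spread. The treatment and genotype comparisons each called 0.654% of all segments, their interaction 0%, treatment within experiment 1 0.654%, treatment within experiment 2 1.31%, and experiment 2 against 1 7.19%. With DESeq2 0 copies were called as well. For treatment, the log2 differences of the 7 copies ran from -0.33 to 0.11 with a median of -0.15, beside -0.03 over all segments. For genotype they ran from -0.36 to 0.34, for treatment in experiment 1 from -0.24 to 0.56, and for experiment 2 minus 1 from -0.36 to 0.20. In experiment 2 the treatment differences ran from -0.85 to 0.05.

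The copy with an unadjusted p under 0.05 in any of these comparisons was TRAV14-3, in experiment 2 (log2 difference -0.85 ± 0.37 SE, unadjusted p = 0.0228, edgeR adjusted p = 0.232). In DESeq2 0 of the copies reached that in any comparison. In the edgeR fit for treatment in experiment 2, 21 of all 153 segments had an unadjusted p under 0.05. The unadjusted p alone therefore did not set TRAV14-3 apart from other segments. TRAV14-3 made up 0.320 to 1.09% of clonotypes over the 8 libraries. WT anti-4-1BB of experiment 2 had the lowest share of TRAV14-3 among them, and also the lowest of TRAV14-1 and TRAV14N-2 (each 0.853%) and of TRAV14D-3-DV8 (0.676%).

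Among cells, 1 copy stood apart in 1 library. As the main alpha chain, TRAV14N-1 made up 5.65% of the cells of WT anti-4-1BB in experiment 2, against 1.98 to 2.24% in the 7 other libraries. Its share of clonotypes there was 2.67%, against 1.78 to 2.30% elsewhere. Of its 251 cells in that library, 142 belonged to 3 clonotypes. TRAV14-2 was highest among cells in KO anti-4-1BB of experiment 2, at 3.16%, with 71 of its 155 cells in 1 clonotype. It did not stand apart there, with 2.89% in KO IgG of the same experiment.

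**Figure D2:**
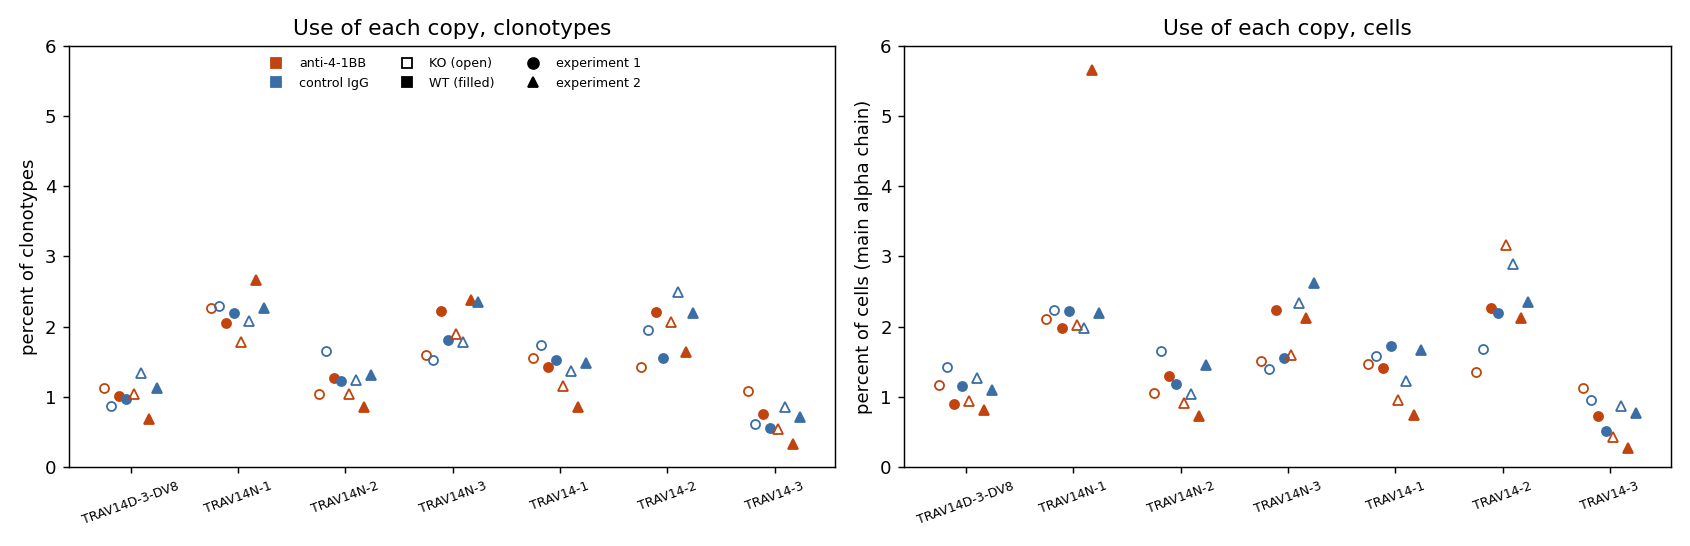
Percent of clonotypes (left) and of cells by main alpha chain (right) that each TRAV14 copy made up, with 1 point per library. TRAV14N-1 in WT anti-4-1BB of experiment 2 lies at 5.65% of cells, above every other point, but at 2.67% of clonotypes.

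In the plot of copy use by clonotypes, TRAV14N-1, TRAV14-2 and TRAV14N-3 were above the 4 other copies in 6 of 8 libraries, and TRAV14-3 was the lowest in 7 of 8. In KO anti-4-1BB of experiment 1, TRAV14-2 (34 clonotypes) was below TRAV14-1 (37), and TRAV14N-2 (25) was below TRAV14-3 (26). In KO IgG of experiment 1, TRAV14N-3 (35) was below TRAV14-1 (40) and TRAV14N-2 (38). The mean shares of those 3 leading copies were 2.199 ± 0.253%, 1.94 ± 0.372% and 1.94 ± 0.336% (SD, n = 8 libraries). Differences between these copies within libraries were not tested. TRAV14-3 averaged 0.678 ± 0.231% and TRAV14D-3-DV8, the next lowest, 1.02 ± 0.197%.

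The copies differed most clearly in the J segments they were joined to. TRAJ segments are numbered from high at the V side to low at the constant region, and the mean TRAJ number of a copy's clonotypes was taken in each library. It averaged 45.3 ± 2.92 for TRAV14-3, 36.6 ± 1.25 for TRAV14-2 and 33.5 ± 1.71 for TRAV14-1 (SD, n = 8 libraries). For the copies farther out it averaged 26.2 ± 2.12 for TRAV14N-3, 23.9 ± 2.44 for TRAV14N-2, 27.2 ± 2.40 for TRAV14N-1 and 25.8 ± 2.76 for TRAV14D-3-DV8. By these means the 3 plain copies lay above the 4 N and D copies, and TRAV14-3 above the other 2 plain copies. Among the N and D copies the widest gap was that of TRAV14N-1 over TRAV14N-2, at 3.29 ± 3.11 (SD, n = 8 libraries), which was positive in 7 of 8 libraries and was not tested. Over the 7 copies the Spearman correlation of start position and mean TRAJ number was 0.82, given as a description, since the copies share libraries and locus.

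**Figure D3:**
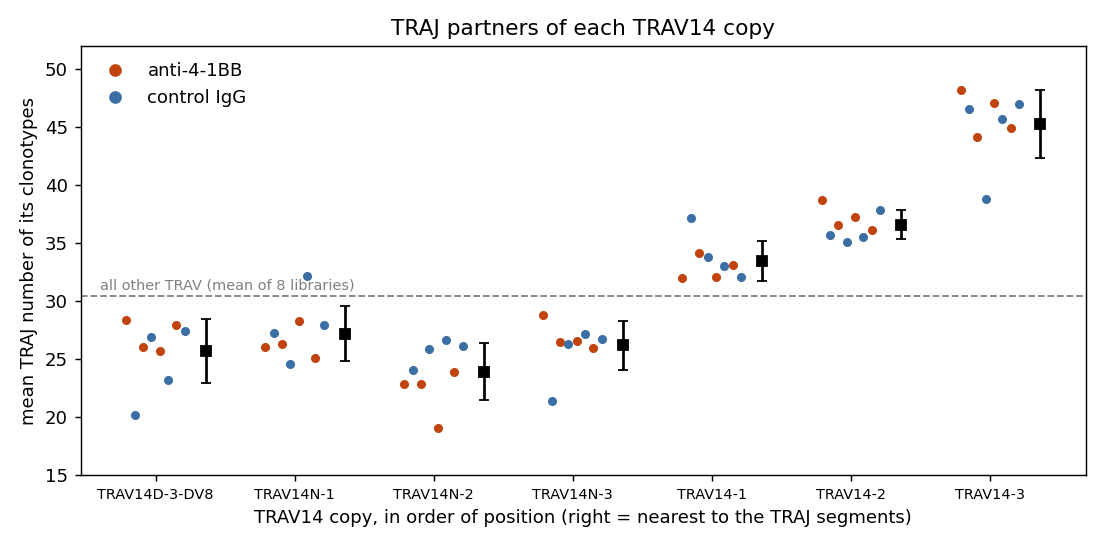
Mean TRAJ number of the clonotypes of each TRAV14 copy, with 1 coloured point per library and black squares for the mean and SD over 8 libraries. TRAV14-3, nearest to the J segments, averages 45.3, and the N and D copies average 23.9 to 27.2.

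Pooled, the plain copies had a mean TRAJ number of 37.0 ± 1.07, with 35.1 to 38.7 over the 8 libraries. The N copies had 26.1 ± 1.39 and TRAV14D-3-DV8 25.8 ± 2.76 (SD, n = 8 libraries). The difference between plain copies and the N and D copies was 11.0 ± 1.56 and was positive in 8 of 8 libraries, from 8.82 to 13.8. Of families with the same kind of duplicates, TRAV13 showed 11.0 ± 1.37, TRAV6 5.73 ± 0.801 and TRAV7 5.70 ± 1.45 (SD, n = 8 libraries). As a whole the family did not stand apart from other V segments, with a TRAV14 minus other difference in mean TRAJ number of -0.167 ± 1.07 (SD, n = 8; exact permutation p = 0.703).

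The shift was large in single segments. Of TRAV14-3 clonotypes, 43.6% used a TRAJ numbered 50 or above, against 13.5% for TRAV14-1, 12.3% for TRAV14-2, 10.03% for TRAV14N-1, 5.03% for TRAV14D-3-DV8, 4.07% for TRAV14N-2 and 2.47% for TRAV14N-3. The leading partners of TRAV14-3 were TRAJ57 with 28 of its 211 clonotypes (13.3%), TRAJ56 with 23 and TRAJ52 with 18. TRAV14-2 was led by TRAJ31 with 66 clonotypes (10.7%) and TRAJ37 with 55. TRAV14N-3 was led by TRAJ31 with 63 clonotypes (10.4%) and TRAJ40 with 35. TRAV14D-3-DV8 had no such leader, with 17 clonotypes each for TRAJ12, TRAJ23 and TRAJ7. Over the family TRAJ31 was the most used, with 260 clonotypes (8.12%), followed by TRAJ37 with 188, TRAJ22 with 152 and TRAJ23 with 146.

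Partner segments of TRAV14 clonotypes were tested against those of all other clonotypes within each library, in an edgeR quasi-likelihood fit over 77 TRAJ, TRBV and TRBJ segments with library as a block. It called 6 segments (7.79%), 3 higher and 3 lower with TRAV14. TRAJ7 and TRBV30 were higher by about a doubling, and TRAJ18 was lower by a similar factor. The others, TRBV10, TRBJ2-4 and TRBJ2-5, differed less.

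TRAJ7 was used by 2.30 ± 0.888% of TRAV14 clonotypes and 1.02 ± 0.200% of other clonotypes (SD, n = 8 libraries), a log2 difference of 1.16 ± 0.23 (SE; edgeR adjusted p = 0.000615), and it was higher in 7 of 8 libraries. The TRAV14 share was 0.830% in KO anti-4-1BB and 2.45% in KO IgG of experiment 1, with 1.81% in WT anti-4-1BB and 2.08% in WT IgG. In experiment 2 it was 3.86% in KO anti-4-1BB, 1.88% in KO IgG, 2.65% in WT anti-4-1BB and 2.87% in WT IgG. The lowest of these values was from 2 clonotypes. The copies shared this unequally. TRAJ7 was found in 8 of 1249 clonotypes of the plain copies (0.641%) and in 64 of 1953 of the N and D copies (3.28%). TRAV14D-3-DV8 had 5.35%, TRAV14N-2 4.61% and TRAV14-2 0.162%. Counted by cells, TRAJ7 lost its call (log2 difference 0.99, edgeR adjusted p = 0.105).

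TRAJ18 was used by 1.28 ± 0.725% of TRAV14 clonotypes and 2.79 ± 0.909% of other clonotypes (SD, n = 8 libraries), a log2 difference of -1.13 ± 0.22 (SE; edgeR adjusted p = 0.000615), lower in 8 of 8 libraries. TRAJ18 is also the J segment of the invariant alpha chain of natural killer T (NKT) cells, which is built with TRAV11. Without the 224 cells that carried that alpha chain, TRAJ18 made up 1.97% of other clonotypes and the difference was -0.63 (edgeR adjusted p = 0.146), so the call was lost. Only 7 cells carried both a TRAV14 and a TRAV11 alpha chain.

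Of the beta V segments, TRBV30 was used by 1.03 ± 0.534% of TRAV14 clonotypes and 0.410 ± 0.142% of other clonotypes (SD, n = 8 libraries). The log2 difference was 1.30 ± 0.27 (SE; edgeR adjusted p = 0.00289), higher in 8 of 8 libraries, and it rested on 30 TRAV14 clonotypes, with 1 to 7 in a library. In KO anti-4-1BB of experiment 2 it was 0.297% against 0.281%, from 1 clonotype. The copies shared TRBV30 unequally, with 1.66% for TRAV14-1, 1.62% for TRAV14-2, 1.15% for TRAV14N-3 and 0.813% for TRAV14N-2. TRAV14N-1 had 0.456%, and TRAV14-3 and TRAV14D-3-DV8 had 0%. TRBV10 was used by 3.41 ± 1.49% of TRAV14 clonotypes and 5.09 ± 0.996% of others, lower in 8 of 8 libraries (log2 difference -0.61 ± 0.13 SE; edgeR adjusted p = 0.00445). Counted by cells, TRBV10 lost its call (log2 difference -0.60, edgeR adjusted p = 0.210). Of the beta J segments, TRBJ2-4 was used by 7.82 ± 2.27% and 10.7 ± 1.07%, lower in 8 of 8 libraries (log2 difference -0.41 ± 0.10 SE; edgeR adjusted p = 0.00445). TRBJ2-4 lost its call without the KO IgG library of experiment 2 (edgeR adjusted p = 0.0509) and when counted by cells (log2 difference -0.34, edgeR adjusted p = 0.339). TRBJ2-5 was used by 17.5 ± 3.60% and 14.3 ± 0.968%, higher in 6 of 8 libraries (log2 difference 0.25 ± 0.08 SE; edgeR adjusted p = 0.0437). Its call did not survive counting by cells (edgeR adjusted p = 0.498), DESeq2 (adjusted p = 0.271) or TMM scaling in edgeR (adjusted p = 0.112). It was also lost without any 1 of 6 of the libraries, at edgeR adjusted p values up to 0.179.

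**Figure D4:**
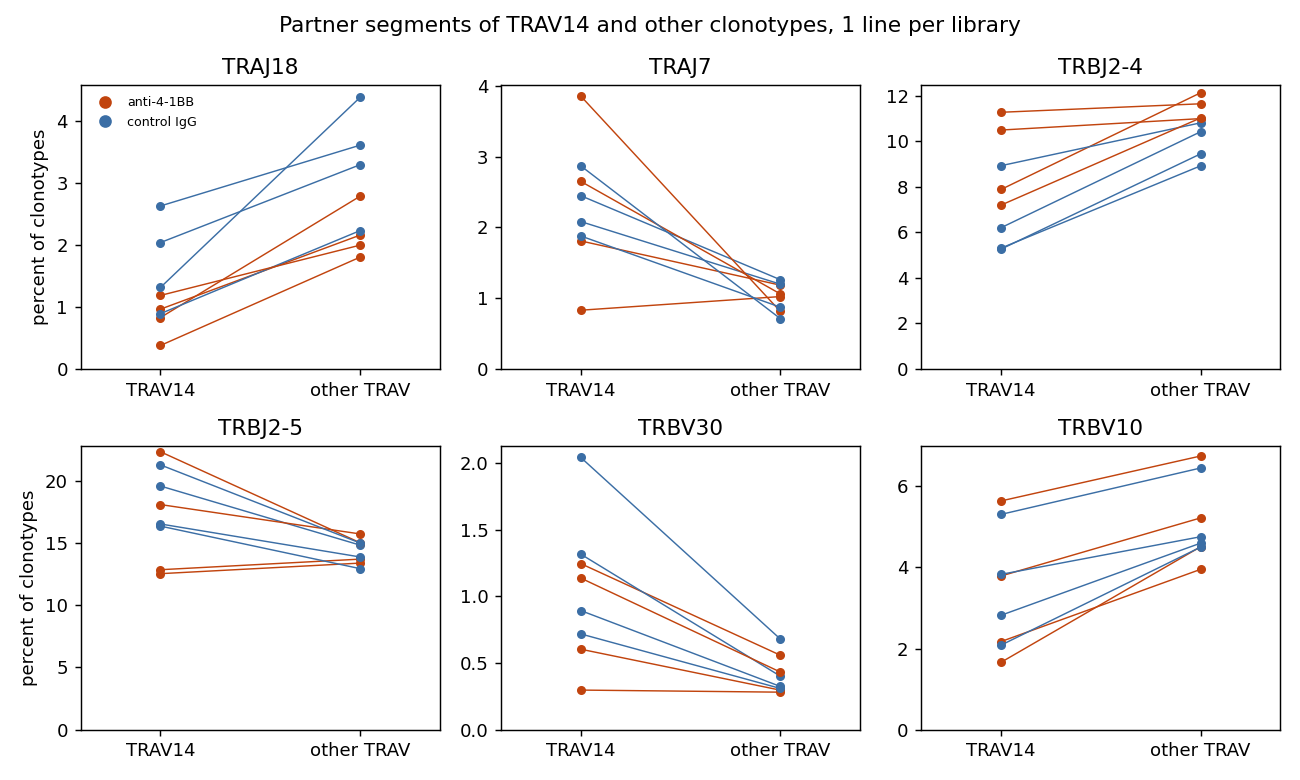
Percent of clonotypes using each of the 6 partner segments called by edgeR, for TRAV14 (left) and other V segments (right) of the same library, with 1 line per library. TRAJ18, TRBV10 and TRBJ2-4 are lower with TRAV14 in 8 of 8 libraries, TRBV30 is higher in 8 of 8, TRAJ7 in 7 of 8 and TRBJ2-5 in 6 of 8.

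The lines in the plot of partner segments show that for TRBJ2-5 the KO and WT anti-4-1BB libraries of experiment 1 ran the other way. Beside these segments, the beta chains of TRAV14 clonotypes were led by TRBV3 (365 clonotypes, 11.4%), the joined label TRBV12-2+TRBV13-2 (352), TRBV31 (240) and TRBV1 (234), and by TRBJ2-7 (638, 19.9%).

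CDR3 alpha of TRAV14 clonotypes ranged from 21 to 54 bases with a median of 39, counted from the conserved cysteine to the phenylalanine of the J segment or the residue in its place. The mean length was lower than that of other clonotypes in 8 of 8 libraries. It was 40.1 and 39.7 bases in KO anti-4-1BB (experiments 1 and 2), 39.7 and 39.9 in KO IgG, 39.9 and 39.6 in WT anti-4-1BB, and 39.6 and 39.9 in WT IgG. For other clonotypes the library means lay between 39.9 and 40.5 bases. The difference was -0.499 ± 0.162 bases (SD, n = 8; exact permutation p = 0.00781, the smallest the design allows, adjusted p = 0.0938 over 12 tests), which did not pass after adjustment. As the lowest of the 12 p-values alone, it could not have passed adjustment whatever the size of the difference. By copy, mean length ran from 39.3 ± 0.316 bases for TRAV14N-3 to 40.5 ± 0.351 for TRAV14-1 (SD, n = 8 libraries). Other clonotypes averaged 40.3 bases, so TRAV14-1 was not shorter by this mean. Differences between copies in length were not tested. Over all copies, KO minus WT was 0.0929 ± 0.0758 bases, positive in 4 of 4 pairs (exact permutation p = 0.125, adjusted p = 0.375). The treatment difference was 0.0302 ± 0.345 bases (SD, n = 4; exact permutation p = 0.875), with 0.325 bases in experiment 1 and -0.265 in experiment 2. Other clonotypes differed in the same directions, by 0.12 and -0.345 bases.

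Some alpha CDR3 sequences recurred between libraries with different beta chains. Of 2491 distinct TRAV14 CDR3 alpha sequences, 289 (11.6%) occurred in 2 or more libraries and 31 in 4 or more, beside 9.52% in 2 or more libraries for other V segments. By contrast 0 of 3202 complete TRAV14 receptors, alpha and beta together, occurred in 2 libraries, and 33 of 27253 did so among the others. Of the most widely shared sequences, 3 are shown here with capitals at bases that match neither the usual V start nor the usual J end.
TRAJ13: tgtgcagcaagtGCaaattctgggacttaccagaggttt
TRAJ31: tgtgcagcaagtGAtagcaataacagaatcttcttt
TRAJ22: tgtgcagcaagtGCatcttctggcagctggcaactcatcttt

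The TRAJ13 sequence was the only 1 found in 8 of 8 libraries, with 18 clonotypes, 5 TRAV14 copies, 12 TRBV segments and 18 different beta chains. The TRAJ31 sequence was found in 7 libraries (8 clonotypes) and the TRAJ22 sequence in 6 (15 clonotypes), each with 5 copies. With V segments other than TRAV14, the TRAJ13 sequence occurred in 3 clonotypes, this TRAJ31 sequence in 1 and the TRAJ22 sequence in 0. Another TRAJ31 sequence, with 5 unmatched bases, was also found in 6 libraries (6 clonotypes). A TRAJ7 sequence with 0 unmatched bases occurred in 6 libraries and 12 clonotypes.
TRAJ7: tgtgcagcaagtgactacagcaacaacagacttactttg

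Sequences found in several libraries carried fewer unmatched bases, at a mean of 2.39 over 853 clonotypes, against 4.29 over the 2349 clonotypes whose CDR3 alpha was seen in 1 library. They were also shorter, at a mean of 39.3 against 40.1 bases.

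A cell was counted as expanded where at least 1 other cell of its library had the same clonotype. The expanded share is the expected percent of such cells once a library is thinned to 2656 cells, the size of the smallest. For TRAV14 cells of experiment 1 it was 13.1% in KO anti-4-1BB, 24.0% in KO IgG, 11.0% in WT anti-4-1BB and 25.3% in WT IgG. For experiment 2 it was 34.0% in KO anti-4-1BB, 24.4% in KO IgG, 56.1% in WT anti-4-1BB and 27.3% in WT IgG. The anti-4-1BB libraries were below their IgG partners in experiment 1 and above them in experiment 2, by -12.6 and 19.3 points on average. Over both experiments the treatment difference averaged 3.32 ± 20.1 points (SD, n = 4; exact permutation p = 0.875), and without either WT library of experiment 2 it was -5.20 points. KO minus WT was -6.07 ± 10.9 points (SD, n = 4; exact permutation p = 0.375), of which the anti-4-1BB pair of experiment 2 had -22.1.

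Other cells of the same libraries moved the same way. Their expanded share was 16.9% in KO anti-4-1BB, 22.3% in KO IgG, 11.9% in WT anti-4-1BB and 18.5% in WT IgG of experiment 1. It was 30.6% in KO anti-4-1BB, 20.7% in KO IgG, 39.3% in WT anti-4-1BB and 20.5% in WT IgG of experiment 2. TRAV14 cells were higher than other cells in 6 of 8 libraries, with means of 26.9% and 22.6%, and the difference of 4.31 ± 6.21 points did not pass (SD, n = 8; exact permutation p = 0.0781, adjusted p = 0.3125 over 12 tests). Without the largest TRAV14 clonotype of each library, with other cells left as they were, the difference was 0.117 points. Leaving out WT anti-4-1BB of experiment 2 gave 2.53 points. TRAV13 averaged 26.9% on the same measure, TRAV7 22.6% and TRAV6 21.5%.

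**Figure D5:**
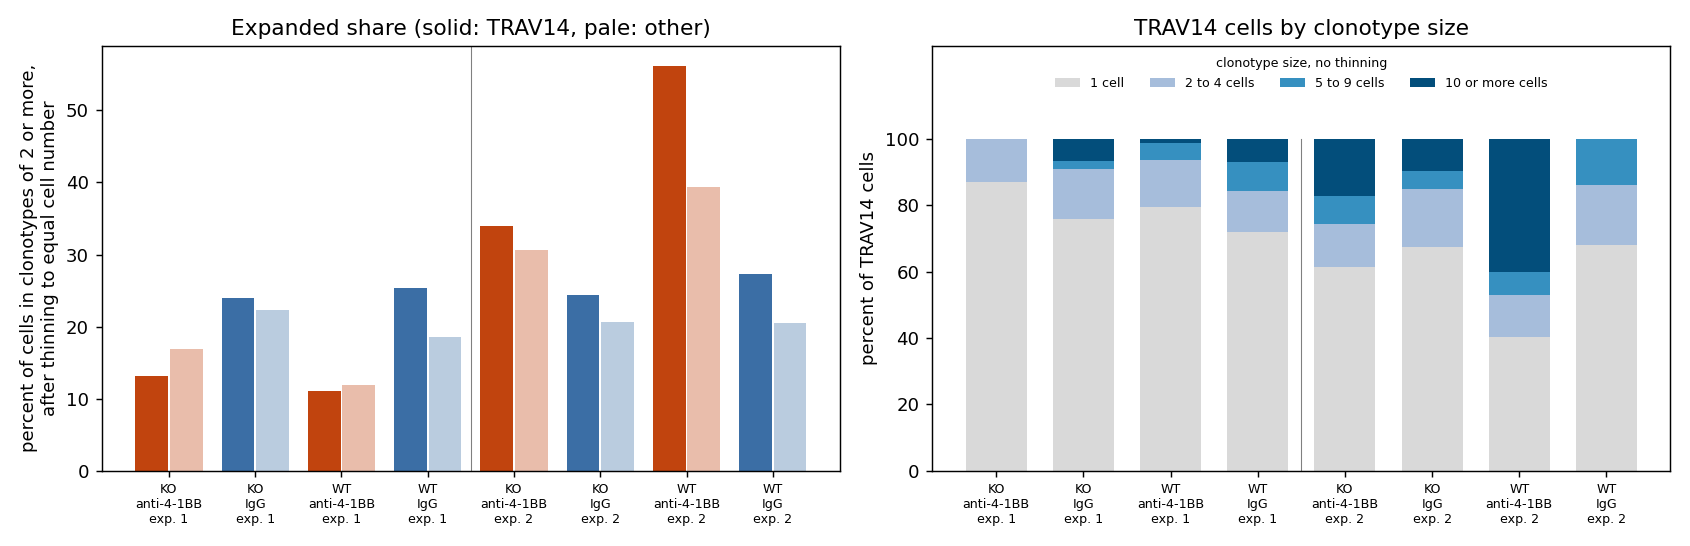
Left: expanded share of TRAV14 cells (solid) and other cells (pale) per library after thinning to 2656 cells. Right: TRAV14 cells by the size of their clonotype, without thinning, with 40.2% of the WT anti-4-1BB cells of experiment 2 in clonotypes of at least 10 cells.

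In the plot of clonotype sizes, large TRAV14 clones lie mostly in experiment 2, as did large clones of other V segments. Of 120 clonotypes of 10 or more cells, 17 (14.2%) were TRAV14, beside 10.5% of all clonotypes, and 14 of the 17 (82.4%) were from experiment 2. Among other V segments 77 of 103 such clonotypes (74.8%) were. In experiment 2, KO anti-4-1BB held 2, KO IgG 5, WT anti-4-1BB 7 and WT IgG 0. By copy, TRAV14-2 had 6, TRAV14N-1 5, TRAV14N-3 4 and TRAV14D-3-DV8 2, and TRAV14-1, TRAV14-3 and TRAV14N-2 had 0. The 3 largest clonotypes made up 18.7% of TRAV14 cells in KO anti-4-1BB and 25.7% in WT anti-4-1BB of experiment 2, and 2.82 to 10.5% in the 6 other libraries.

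The largest clones carried the following alpha CDR3 sequences, with capitals as above. They are shown because they hold many of the TRAV14N-1 and TRAV14-2 cells of the anti-4-1BB libraries of experiment 2.
TRAV14-2/TRAJ49, KO anti-4-1BB, experiment 2: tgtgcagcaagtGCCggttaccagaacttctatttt
TRAV14N-1/TRAJ4, WT anti-4-1BB, experiment 2: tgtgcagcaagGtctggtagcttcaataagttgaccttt
TRAV14N-1/TRAJ4 with another beta chain, WT anti-4-1BB, experiment 2: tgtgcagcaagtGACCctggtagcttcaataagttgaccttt
TRAV14N-1/TRAJ31, WT anti-4-1BB, experiment 2: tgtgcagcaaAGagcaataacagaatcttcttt

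The TRAV14-2/TRAJ49 clone had 71 cells, or 1.45% of its library (95% Clopper-Pearson interval 1.13 to 1.82%), and was the largest clonotype there. Its beta chain was TRBV20/TRBJ2-4, with the CDR3 below.
TRBV20/TRBJ2-4: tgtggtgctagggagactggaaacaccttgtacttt

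Its alpha CDR3 occurred in 6 clonotypes, all in that library. The first TRAV14N-1/TRAJ4 clone, with TRBV13-1/TRBJ1-1, had 61 cells (1.37%) and was the largest of its library. The second, with TRBV31/TRBJ2-4, had 42 cells, and the TRAV14N-1/TRAJ31 clone, with TRBV12-2+TRBV13-2/TRBJ1-1, had 39. The 2 TRAJ4 clones thus shared the V and J labels but neither the CDR3 alpha nor the beta chain.

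The same library held a TRAV14-2/TRAJ23 clone with TRBV15/TRBJ1-1 of 35 cells and a TRAV14N-3/TRAJ15 clone with TRBV13-3/TRBJ2-7 of 21. In experiment 1 the leading TRAV14 clone was the largest clonotype of the library in KO IgG (TRAV14D-3-DV8/TRAJ12, 20 cells) and in WT IgG (TRAV14-2/TRAJ31, 30 cells). The leading clones of KO anti-4-1BB and WT anti-4-1BB in experiment 1 had 4 and 13 cells. In experiment 2 those of KO IgG and WT IgG had 18 and 9. The alpha CDR3 of each of these leading clones was found in 1 library only.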

How the data were processed

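Single-cell TCR libraries (10x 5′) of 8 samples were used, and the 8 gene expression libraries were not analysed here. Each deposited table lists the assembled contigs of 1 library with V and J labels, CDR3 and counts of reads and UMIs, per the file headers. The submitters' processing notes name bcl2fastq 2.20.0, Seurat, the build GRCm38 and Cell Ranger 7.1.0, while the V(D)J reference is not given in the sources used here. Another deposited column, the contig length in bases, was not used in a test. Whether a second chain was removed before deposit cannot be told from the tables. Cells with 2 beta chains, which can be doublets, were left out. Gene positions are from the RefSeq table of GRCm38.p6. CDR1, CDR2 and V bases are the most frequent ones among each copy's contigs.

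Clonotypes were counted per segment and library and tested with edgeR 4.0.16 (quasi-likelihood, totals as library sizes, segments with at least 10 clonotypes in 2 libraries, Benjamini-Hochberg, threshold 0.05) in R 4.3.3. Single values were compared by two-sided exact permutation, by swaps within experiment and the other factor (16 arrangements) or sign flips over libraries (256). CDR3 alpha bases were matched to the start and end carried by at least 60% of the family's or TRAJ's sequences at each position. On simulated clonotype counts of 152 segments the treatment fit recovered 11 of 11 halved and 8 of 12 segments raised 1.5-fold, and called 0 of 129 unchanged ones. The spread between simulated libraries was a fixed setting and was not estimated from these libraries. The recovered counts therefore do not give the power for the copies, whose treatment differences had SEs of 0.247 to 0.301. The sample titles name the experiment, which was taken to pair libraries, whose deviations correlated at -0.131 to 0.402 over 6 pairs. Named segments were the 7 copies, the segments called and the leading partners, clones and shared sequences by count. The members, lists and named segments were chosen with earlier results of these data known. Alternatives were DESeq2 1.42.0, TMM, no filter, cells for clonotypes, 3 UMIs per chain, 1 alpha chain, no thinning and beta chain alone. Further ones were experiment as a block, genotype as a term in the fits by experiment, and each library left out. Removing invariant NKT receptors and merging the joined TRBV label were added after the data were seen.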

Additional observations from a re-analysis of the deposited data

Results flagged for a closer look

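In 3 measures of TRAV14 receptors, every pair of libraries of one kind moved one way with anti-4-1BB and every pair of the other kind moved the opposite way. None of these differences between kinds was itself tested. The share of cells with a TRAV14 alpha chain differed between anti-4-1BB and IgG by -1.38 percentage points in KO mice (-0.903 and -1.85 in experiments 1 and 2) and by 0.471 points in WT mice (0.548 and 0.394). The expanded share of TRAV14 cells differed between anti-4-1BB and IgG by -12.6 points in experiment 1 (-10.9 in KO and -14.3 in WT) and by 19.3 points in experiment 2 (9.63 in KO and 28.9 in WT). Other cells of these libraries moved the same way, by -5.98 and 14.4 points. The mean CDR3 alpha length of TRAV14 clonotypes differed by 0.325 bases in experiment 1 (0.385 in KO and 0.265 in WT) and by -0.265 bases in experiment 2 (-0.239 in KO and -0.291 in WT). Other clonotypes also moved that way in every pair, by 0.12 bases in experiment 1 (0.05 in KO and 0.19 in WT) and by -0.345 in experiment 2 (-0.595 in KO and -0.095 in WT). Experiment goes with the kind of knockout and with tamoxifen, and these cannot be told apart.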

How the results depend on the processing

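Calls of the 7 copies did not depend on the settings tried, with 0 copies called in each of the 6 comparisons under every alternative. With experiment as a replicate block, the pairing left 0 copies called for treatment, genotype and their interaction. Counted by cells, 2 partner segments were called in place of 6, TRAJ18 and TRBV30. With each library left out in turn, 4 to 7 were called (in the fits over groups the lone library of a group is then assumed to vary like the others), and without invariant NKT receptors 4. With at least 3 UMIs per chain, the expanded share of TRAV14 minus other cells was 4.89 points and passed unadjusted (exact permutation p = 0.0469), and the clonotype share by genotype turned to 0.0139 points. Counted by cells, CDR3 alpha length by treatment turned to -0.299 bases. The cause of these changes was not tested. With each library left out, TRAV14 minus other lay between -0.541 and -0.467 bases for CDR3 alpha length, 2.53 and 5.44 points for the expanded share (exact permutation p 0.0312 to 0.156, the lowest without KO anti-4-1BB of experiment 1), -0.357 and 0.132 for the mean TRAJ number (0.132 without WT anti-4-1BB of experiment 2) and -9.45 and -5.49 points for the share of second alpha chains. By treatment the ranges were -1.40 to -0.350 points for the clonotype share, -0.787 to 0.0131 for the cell share, -5.20 to 9.20 for the expanded share and -0.0882 to 0.137 bases for length. By genotype they were -0.336 to 0.219 points for the clonotype share, -1.52 to -0.563 for the cell share, -8.78 to -0.727 for the expanded share and 0.0573 to 0.117 bases for length. The clonotype share by genotype was 0.219 without the KO or WT anti-4-1BB library of experiment 1 and 0.0298 without the KO or WT IgG library of experiment 2. The cell share by treatment was 0.0131 without either KO library of experiment 2. CDR3 alpha length by treatment was -0.0882 bases without either KO library of experiment 1 and -0.0482 without either WT library of experiment 1. With 2 libraries per group, an exact permutation test over 4 pairs cannot reach 0.05, which limits every comparison of single values by treatment or genotype.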

Other observations

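In cells with 2 alpha chains, a TRAV14 chain was less often the one with fewer UMIs. This held for 38.1% of TRAV14 chains and 45.9% of other chains on average, a difference of -7.74 ± 7.90 points that was negative in 7 of 8 libraries (SD, n = 8; exact permutation p = 0.0234, adjusted p = 0.141 over 12 tests) and did not pass after adjustment. The exception was WT anti-4-1BB of experiment 2, with 50.0% against 45.7%. Counts were small, with 7 to 68 cells per library whose second alpha chain was TRAV14. The lowest value was in KO IgG of experiment 1, at 23.5% against 47.0%, and without that library the difference was -5.49 points. The higher UMI medians of TRAV14 main chains go with the lower share of TRAV14 second chains, and their part in it was not tested. Of the 4395 TRAV14 cells, 11 carried a TRAV14 label on both alpha chains.

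Over the 8 libraries, the families whose clonotype share was most like that of TRAV14 among 18 families were TRAV19 (Pearson r = 0.821), TRAV11 (r = 0.604) and TRAV10 (r = 0.566). These values describe 8 libraries whose shares add up to 1 total, and nothing was tested on them.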
